A study of Mus musculus with 2 samples.

Results

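The genes described here encode subunits and assembly factors of respiratory complex I, the NADH:ubiquinone oxidoreductase of the inner mitochondrial membrane. They were taken by name alone: every probe set whose annotation gives exactly 1 gene symbol, and that symbol begins with Nduf. The rule found 44 genes with 88 probe sets, among 18193 genes with 34945 probe sets of 1 symbol. Of the 44 genes, 34 encode structural subunits, 8 encode assembly factors (Ndufaf1 to Ndufaf8), and Ndufa4 and its paralog Ndufa4l2 were kept apart. Skeletal muscle RNA was hybridised to 2 Affymetrix 430 2 arrays, 1 for Jhdm2a null mice and 1 for wild-type mice. Each held RNA combined from 3 male mice aged 3 months, and both groups derive from 129 embryonic stem cells backcrossed for 4 generations to C57BL/6. The labels name neither the disrupted part of Jhdm2a nor the muscle that was sampled.

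Complex I takes electrons from NADH and passes them through a flavin and a chain of iron-sulfur clusters to ubiquinone, while its membrane arm pumps protons. The N module oxidises NADH, the Q module reduces quinone, and the proximal and distal parts of the membrane arm hold the pumping subunits, which mitochondrial DNA encodes, wrapped in small nuclear-encoded ones. Assembly factors bind intermediates of the enzyme and are absent from the finished complex. Jhdm2a, now named Kdm3a, is a demethylase of lysine 9 of histone H3. In muscle, complex I feeds on NADH from fatty acid oxidation and from the tricarboxylic acid cycle.

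Promoter sequence is shown first because the disrupted gene encodes a histone demethylase and because transcription factors of respiratory genes bind there. RefSeq windows on GRCm38.p6, from 250 bases before to 50 after each gene start, were matched for 39 of the 44 genes. The motif of NRF1, a factor long linked to nuclear genes of the respiratory chain, was searched on both strands as GCGC, any 1 base, then TGCGC. It was found in 7 of the 39 genes (17.9%), and in 5.19% of all 27025 genes with such windows. The stretches of 30 bases around these matches, taking the match nearest the gene start, are listed 5′ to 3′ on the strand of the gene, with the matched letters in capitals.
Ndufaf5, chr2:140170652-140170681 (+): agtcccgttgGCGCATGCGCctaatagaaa
Ndufaf4, chr4:24897960-24897989 (+): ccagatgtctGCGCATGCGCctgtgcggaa
Ndufa6, chr15:82354249-82354278 (-): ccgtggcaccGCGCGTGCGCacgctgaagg
Ndufa8, chr2:36049349-36049378 (-): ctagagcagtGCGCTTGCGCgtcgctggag
Ndufs5, chr4:123718265-123718294 (-): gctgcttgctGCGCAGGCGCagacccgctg
Ndufa5, chr6:24527697-24527726 (-): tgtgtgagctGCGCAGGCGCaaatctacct
Ndufb4, chr16:37654371-37654400 (-): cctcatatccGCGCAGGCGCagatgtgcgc

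The match begins 113 bases before the start of Ndufaf4 and 16 bases after the start of Ndufaf5, and both assembly factors carry the same 10 letters. The listed matches of the subunits Ndufs5, Ndufa5 and Ndufb4 are likewise identical to each other. The ETS motif CCGGAAG, bound by GABPA, was found in 6 of 39 genes (15.4%), against 9.93% of all genes. These were Ndufs3, Ndufs8, Ndufb6, Ndufb7, Ndufaf1 and Ndufaf8. The YY1 motif AAGATGGCG was found in 5 (12.8%), namely Ndufs4, Ndufs7, Ndufa9, Ndufc1 and Ndufaf8, against 1.64% of all genes. The ERR motif TCAAGGTCA was in 0 of the 39, and in 0.466% of all genes. A match is a run of letters and not a bound site, and the matches were not tested. As whole examples, the 250 bases before the start of an assembly factor with the NRF1 letters and of a core subunit with the ETS letters are given, motif letters in capitals.
Ndufaf4, chr4:24897833-24898082 (+): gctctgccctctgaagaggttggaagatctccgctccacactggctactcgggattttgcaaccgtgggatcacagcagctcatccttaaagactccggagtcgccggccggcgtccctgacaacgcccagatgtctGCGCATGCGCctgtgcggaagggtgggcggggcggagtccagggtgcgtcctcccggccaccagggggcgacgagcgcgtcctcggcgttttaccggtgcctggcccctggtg
Ndufs3, chr2:90904722-90904971 (-): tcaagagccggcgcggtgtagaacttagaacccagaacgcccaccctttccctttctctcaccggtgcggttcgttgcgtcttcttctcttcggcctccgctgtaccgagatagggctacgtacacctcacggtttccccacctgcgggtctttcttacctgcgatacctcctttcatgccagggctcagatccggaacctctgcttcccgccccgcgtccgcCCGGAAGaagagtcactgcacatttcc

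On the arrays, complex I transcripts had nearly the same signal in the null-labelled pool as in the wild-type-labelled pool. Of the 44 genes, 43 had a probe set above a floor of 182 on both arrays and are called measured. The floor is the 60th percentile of all signals, used because detection calls were not analysed here. Each gene was given the average of the log2 ratios of its measured probe sets, with the null-labelled signal on top. Of the 43 genes, 0 reached 1.5-fold upward and 0 reached it downward with all probe sets of 1 sign. By the same rule 3.35% of all 9696 measured genes were higher and 6.27% were lower. The members ranged from -0.30 for Ndufab1 to 0.52 for Ndufaf5. Among them 46.5% lay within 0.1 of 0 on the log2 scale, against 26.1% of all measured genes. These shares are not matched for signal: the median signal was 10403 for the members and 695 for all measured genes. The middle 50% of the subunits had signals between 8497 and 14179. Among the 171 measured genes in that range, subunits included, 1.17% were higher and 1.75% lower by the 1.5-fold rule. With 1 array per genotype no test was possible, differences have no replicate check, and array and genotype cannot be told apart.

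**Figure D1:**
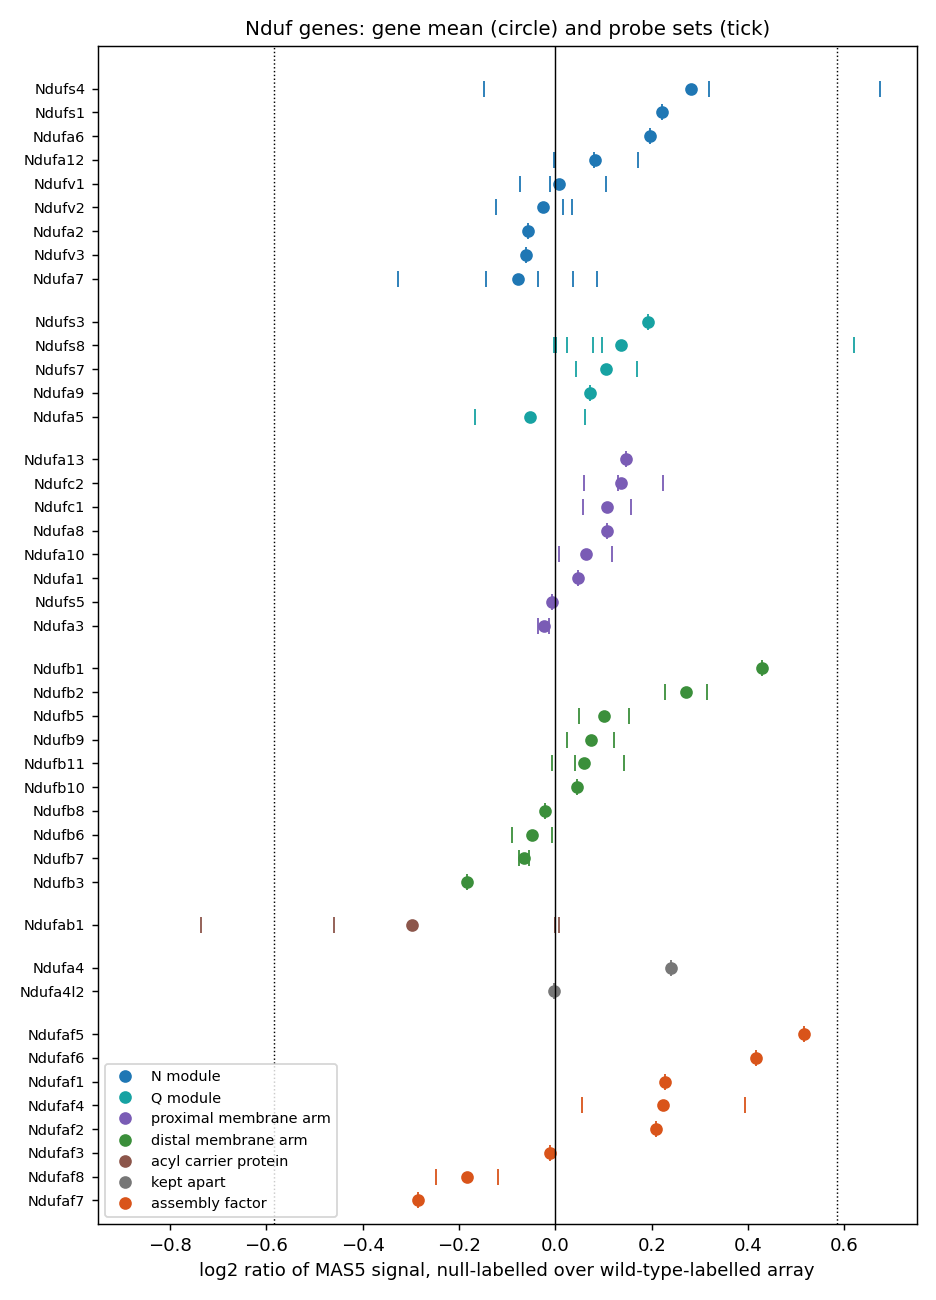
Log2 ratio of MAS5 signal, null-labelled over wild-type-labelled pool (horizontal axis), for the 43 measured genes, grouped by place in complex I. Circles are gene means, ticks are probe sets and dotted lines mark 1.5-fold. All 43 circles lie between the dotted lines, from -0.30 (Ndufab1) to 0.52 (Ndufaf5), and single probe sets of Ndufs4, Ndufs8 and Ndufab1 lie outside them.

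Several facts of both arrays stand beside these values. The median signal was 112 on each array, and the log2 ratios of 18 hybridisation controls averaged -0.02 ± 0.09 (SD). Kdm3a itself read 488 in the null-labelled pool and 406 in the wild-type-labelled pool from its 1 probe set. Its signal is thus no check of the labels, on which every direction here rests. All 10 muscle fibre markers (Acta1, Tnni2, Ckm, Myh4 and others) were above the floor on both arrays, with a median log2 ratio of 0.14 (0.05 after quantile normalization and 0.03 after loess) and summed signals of 217232 in the null-labelled pool and 196779 in the wild-type-labelled pool. Other cell types differed strongly: 7 of 9 brown adipocyte markers were lower in the null-labelled pool, 5 of them at least 2-fold, and the summed signals were 36328 against 72302 in the wild-type-labelled pool. Most of the null-labelled sum came from Cox7a1 and Cox8b, which differed little, and the other 7 markers, set apart after their values were seen, summed to 3699 in the null-labelled pool and 38185 in the wild-type-labelled pool. Brown adipocytes are rich in mitochondria, and Ucp1, their uncoupling protein, read 283 in the null-labelled pool and 14885 in the wild-type-labelled pool. The adipocyte markers were lower in 7 of 7 (summed signals 14131 null-labelled, 57641 wild-type-labelled), and the hepatocyte markers in 7 of 7 (814 and 9066 in the same order), with Fgb, Ahsg and Tat not above the floor on either array. The part of these cells in the complex I values was not tested, and fewer cells of a type cannot be told apart from less RNA per cell.

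The structural subunits lay close together. The 33 measured had a median log2 ratio of 0.06 as deposited, but -0.01 after quantile normalization and -0.04 after loess, so no direction is read from it. The median of all measured genes was 0.04. The middle 50% of subunits spanned -0.02 to 0.14, against -0.17 to 0.23 for all genes, and their SD over genes was 0.14, against 0.46. The middle 50% of complexes II to V was much alike, from -0.03 to 0.12. Subunit probe sets read high on both arrays, and in that range ratios were small among measured genes at large. Geometric mean signals between 8497 and 14179 are the middle 50% of the subunits' own signals. The 171 measured genes in that range, subunits included, had a median of 0.12 and an SD of 0.23. The 17 subunits in that range had a median of 0.05 and an SD of 0.12.

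**Figure D2:**
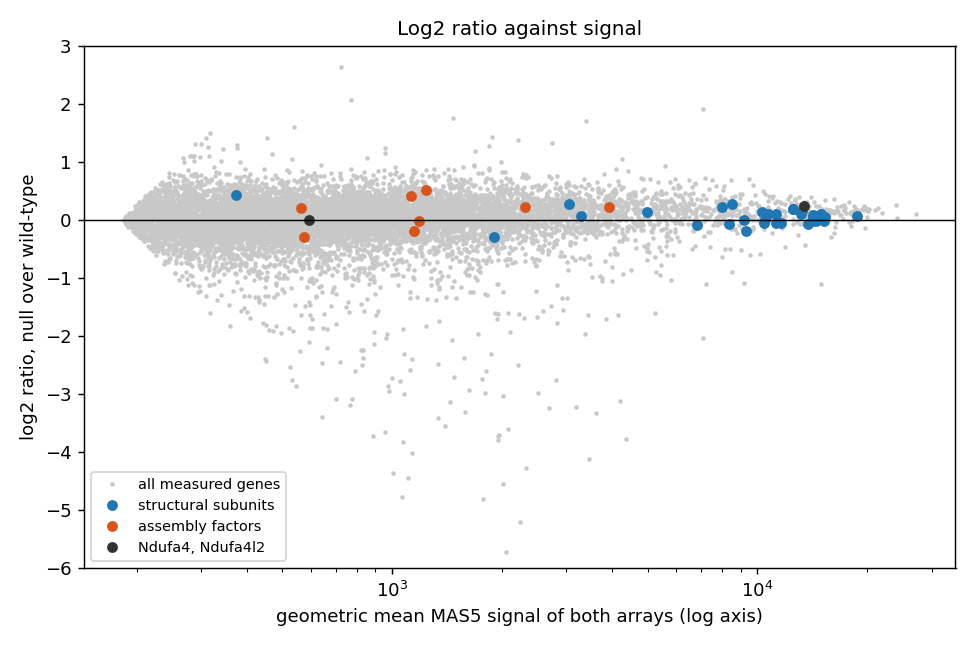
Log2 ratio, null-labelled over wild-type-labelled (vertical axis), against the geometric mean MAS5 signal of both arrays (horizontal log axis) for 9696 measured genes (grey), structural subunits (blue), assembly factors (orange) and the genes kept apart (black). Most subunits sit at high signal, where the grey cloud is narrow, and the 8 assembly factors sit between 563 and 3913.

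Large ratios were rare among all probe sets of high signal. Of the 79 measured probe sets of the members 42 had a geometric mean signal above 10000, as did 427 of all 15403 named and measured probe sets. The log2 ratios of the 42 ran from -0.17 to 0.24. Of all 427 named and measured probe sets above that mean, members included, 0.234% were higher by 1.5-fold or more and 1.41% were lower by as much. The highest signals were 30204 in the null-labelled pool and 28234 in the wild-type-labelled pool.

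The core subunits, which carry the redox centres and the quinone site, had values between -0.02 and 0.22. The 6 measured had a median of 0.12, which stayed above 0 in each of 8 alternatives, from 0.02 after loess to 0.17 without suffixed probe sets. The 171 measured genes with signals between 8497 and 14179, subunits included, also had a median of 0.12. After quantile normalization the core median was 0.06 and that of all measured genes 0.05, so no direction is read from the core. Ndufs1, the largest subunit, which holds several iron-sulfur clusters, read 8622 in the null-labelled pool and 7399 in the wild-type-labelled pool, a log2 ratio of 0.22. Ndufs3, of the Q module, read 13342 in the null-labelled pool and 11675 in the wild-type-labelled pool, a log2 ratio of 0.19. These are the highest values of the core, and each rests on 1 probe set.

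Ndufs7, which holds the last iron-sulfur cluster before quinone, read 12011 and 11383 in the null-labelled pool from its 2 probe sets. The same probe sets read 10687 and 11050 in the wild-type-labelled pool, a mean log2 ratio of 0.11 ± 0.09 (SD of 2 probe sets). Ndufv1, which binds NADH and the flavin, read 11229, 9696 and 10710 in the null-labelled pool, against 11317, 9014 and 11273 in the wild-type-labelled pool. Its mean was 0.01 ± 0.09 (SD of 3 probe sets), with probe sets on both sides of 0. Ndufv2, another iron-sulfur subunit of the N module, read 15999, 13338 and 12899 in the null-labelled pool, against 15625, 14536 and 12760 in the wild-type-labelled pool, a mean of -0.02 ± 0.09 (SD of 3 probe sets). For both N module subunits the spread between probe sets exceeded the mean.

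Ndufs8, which carries iron-sulfur clusters beside Ndufs7, had 6 measured probe sets that did not agree in size. Of these, 5 read between 4258 and 13099 in the null-labelled pool and between 4188 and 12407 in the wild-type-labelled pool, with log2 ratios from -0.0037 to 0.10. The sixth read 640 in the null-labelled pool and 416 in the wild-type-labelled pool, a log2 ratio of 0.62. The gene mean of 0.14 ± 0.24 (SD of 6 probe sets) therefore rests on 1 probe set, and with the floor at the 75th percentile, which drops it, the mean was 0.04.

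The accessory subunits of the N module included the widest disagreement among probe sets. Ndufs4, whose loss in mice gives a model of Leigh syndrome, read 7175, 2592 and 2036 in the null-labelled pool from 3 measured probe sets. On the wild-type-labelled array the same probe sets read 5749, 2873 and 1275, giving log2 ratios of 0.32, -0.15 and 0.68. The mean was 0.28 ± 0.41 (SD of 3 probe sets), and its spread exceeds it. Ndufa6, a LYR-motif protein, had 0.20 from 1 probe set, with 13396 in the null-labelled pool and 11690 in the wild-type-labelled pool. Ndufa12 had 0.08 ± 0.09 (SD of 3 probe sets). Below 0 were Ndufa2 at -0.06 (11343 null-labelled, 11799 wild-type-labelled), Ndufv3 at -0.06 (13434 null-labelled, 14013 wild-type-labelled) and Ndufa7 at -0.08 ± 0.16 (SD of 5 probe sets). The probe sets of Ndufa7 read 11896, 10710, 8316, 6586 and 1861 in the null-labelled pool, against 11603, 10979, 7830, 7281 and 2334 in the wild-type-labelled pool. Their log2 ratios ran from -0.33 to 0.09, so its sign is not settled. The N module median over 9 genes was 0.01, and it was -0.10 after loess.

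**Figure D3:**
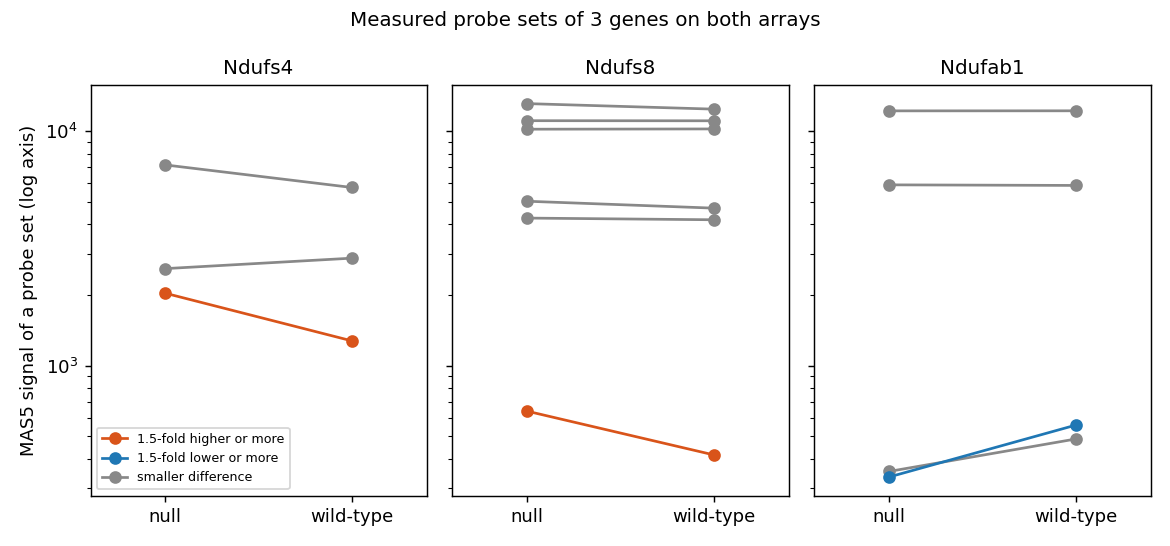
MAS5 signal (log axis) of each measured probe set of Ndufs4, Ndufs8 and Ndufab1 on the null-labelled (left) and wild-type-labelled (right) array, joined by a line. In Ndufs4 and Ndufs8 1 probe set each is at least 1.5-fold higher in the null-labelled pool (log2 ratios 0.68 and 0.62), and in Ndufab1 1 is at least 1.5-fold lower (-0.73), while the other lines show smaller differences.

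The accessory subunits of the Q module and the proximal membrane arm lay between -0.05 and 0.15. Ndufa9, which binds a nucleotide cofactor in the Q module, had 0.07, and Ndufa5 had -0.05 ± 0.16 (SD of 2 probe sets). The 8 measured subunits of the proximal membrane arm ran from -0.02 for Ndufa3 to 0.15 for Ndufa13, also known as GRIM-19. Between them lay Ndufs5 at -0.01, Ndufa1 at 0.05, Ndufa10 at 0.06, Ndufa8 and Ndufc1 at 0.11 each, and Ndufc2 at 0.14. Their median was 0.08, and -0.01 after loess. This was the narrowest of the larger groups, with an SD of 0.06 over genes.

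The distal membrane arm held both ends of the membrane subunits. Ndufb1, a small membrane subunit, read 434 in the null-labelled pool and 323 in the wild-type-labelled pool, a log2 ratio of 0.43 from 1 probe set. Ndufb2 read 8751 and 9950 in the null-labelled pool, against 7040 and 8504 in the wild-type-labelled pool, a mean of 0.27 ± 0.06 (SD of 2 probe sets), so its probe sets agree in sign and size. Ndufb3 read 8717 in the null-labelled pool and 9894 in the wild-type-labelled pool, a log2 ratio of -0.18. Ndufb7 read 6742 and 9856 in the null-labelled pool, against 7001 and 10383 in the wild-type-labelled pool, a mean of -0.06 ± 0.01 (SD of 2 probe sets). The other 6 (Ndufb5, Ndufb6, Ndufb8, Ndufb9, Ndufb10 and Ndufb11) lay between -0.05 and 0.10. The group median was 0.05 over 10 genes, and -0.04 after quantile normalization and -0.06 after loess.

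Ndufab1, the mitochondrial acyl carrier protein, sits in complex I and also serves mitochondrial fatty acid and lipoate synthesis. It had the lowest mean of all members, but its 4 measured probe sets fell into separate pairs. The first pair read 12197 and 5900 in the null-labelled pool and 12204 and 5866 in the wild-type-labelled pool, log2 ratios of -0.0009 and 0.01. The second pair read 354 and 335 in the null-labelled pool and 487 and 558 in the wild-type-labelled pool, log2 ratios of -0.46 and -0.73. The mean was -0.30 ± 0.36 (SD of 4 probe sets). With the floor at the 75th percentile the second pair drops out and the mean was 0.0037. A further probe set shared with a pseudogene read 15332 in the null-labelled pool and 15726 in the wild-type-labelled pool, a log2 ratio of -0.04.

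Assembly factors were more scattered than the structural subunits and had a higher median. The structural median of 0.06 stood 0.15 below the assembly factor median of 0.22, a difference of -0.15 on the log2 scale, and the SDs over genes were 0.14 and 0.28. The difference had the same sign in each of the 8 other settings run on all values, between -0.22 and -0.09, and the assembly factor median stayed above 0, between 0.13 and 0.22. All settings reprocess the same 2 arrays. The means were closer, 0.06 for the subunits and 0.14 for the assembly factors. The shares above 0 were nearly equal, 63.6% of the subunits and 62.5% of the assembly factors. The ranges overlap: 7 of the 8 assembly factors lie inside the range of the subunits, though only 1 lies within the subunits' middle 50%, and 4 of the 33 subunits exceed the assembly factor median. The ends of the subunit range, Ndufab1 at -0.30 and Ndufb1 at 0.43, rest on probe sets of low signal. With the floor at the 75th percentile Ndufab1 was 0.0037 and Ndufb1 had no value. Among all 5033 measured genes with signals between 563 and 3913, the range of the assembly factors, the median was 0.05, the middle 50% spanned -0.16 to 0.25 and the SD was 0.52. Against those genes the assembly factors had a smaller SD and a higher median, and the difference was not tested.

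**Figure D4:**
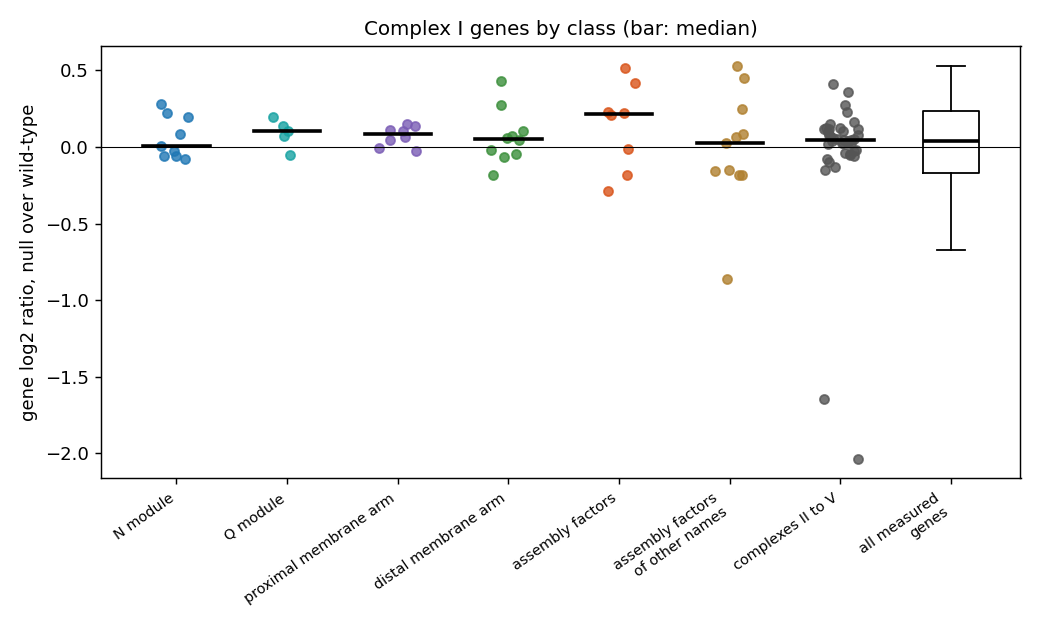
Gene log2 ratios, null-labelled over wild-type-labelled, of each complex I class, of assembly factors of other names and of complexes II to V (points: genes, bars: medians), with all measured genes as a box (middle 50%, whiskers from the 5th to the 95th percentile). The assembly factor median is 0.22, and the medians of the structural modules are 0.01 to 0.11 as deposited and below 0 after loess.

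The assembly factors above 0 act on different parts of the enzyme. Ndufaf5, which modifies an arginine of Ndufs7, read 1479 in the null-labelled pool and 1034 in the wild-type-labelled pool, 1.43-fold higher (log2 ratio 0.52). Ndufaf6, needed for the mitochondrially encoded part of the proximal arm, read 1299 in the null-labelled pool and 973 in the wild-type-labelled pool, 1.34-fold higher (log2 ratio 0.42). Both values rest on 1 probe set each and stayed between 0.37 and 0.54 in the alternatives that kept them. Ndufaf4, which works on the Q module, read 2511 and 2494 in the null-labelled pool, against 1912 and 2401 in the wild-type-labelled pool, a mean of 0.22 ± 0.24 (SD of 2 probe sets). Ndufaf1, which builds the membrane arm together with Ecsit, Acad9 and Tmem126b, read 4234 in the null-labelled pool and 3617 in the wild-type-labelled pool (log2 ratio 0.23). Ndufaf2, a paralog of Ndufa12 that helps dock the N module, read 605 in the null-labelled pool and 523 in the wild-type-labelled pool (log2 ratio 0.21).

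The other 3 assembly factors were at or below 0. Ndufaf3, the partner of Ndufaf4, read 1180 in the null-labelled pool and 1189 in the wild-type-labelled pool, a log2 ratio of -0.01. Ndufaf8, the partner of Ndufaf5, read 417 and 2772 in the null-labelled pool, against 495 and 3011 in the wild-type-labelled pool, a mean of -0.18 ± 0.09 (SD of 2 probe sets). Ndufaf7, an arginine methyltransferase, read 518 in the null-labelled pool and 632 in the wild-type-labelled pool, a log2 ratio of -0.29 from 1 probe set. The partners Ndufaf5, at 0.52, and Ndufaf8, at -0.18, stood on different sides of 0. The measured members with the NRF1 letters ran from -0.05 for Ndufa5 to 0.52 for Ndufaf5, where all measured members ran from -0.30 to 0.52. Ndufb4, which also holds these letters, had no measured value.

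Assembly factors of other names did not share a direction. Of 11 measured genes on that list 0 were 1.5-fold higher and 1 was 1.5-fold lower, against 3.35% and 6.27% of all measured genes, and their median of 0.03 took both signs across the alternatives. The gene past 1.5-fold was Foxred1, an oxidoreductase needed for assembly, which read 398 in the null-labelled pool and 722 in the wild-type-labelled pool (log2 ratio -0.86). Tmem126b, of the same assembly unit as Ndufaf1, had 0.53, with 400.0 in the null-labelled pool and 277 in the wild-type-labelled pool. Tmem70, which also acts on ATP synthase, had 0.45, and Timmdc1, a membrane anchor for assembly, had 0.24. The mitochondrially encoded pump subunit ND5 read 22931 in the null-labelled pool and 19830 in the wild-type-labelled pool, a log2 ratio of 0.21 from 1 probe set.

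Ndufa4 carries a complex I name but is now placed in cytochrome c oxidase. It read 14615 in the null-labelled pool and 12372 in the wild-type-labelled pool, a log2 ratio of 0.24, while its hypoxia-induced paralog Ndufa4l2 read 592 in the null-labelled pool and 593 in the wild-type-labelled pool. Counting Ndufa4 as a subunit gave a structural median of 0.07. Complexes II to V, as the nearest comparison, had a median of 0.05 over 40 genes, with 0 genes past 1.5-fold upward and 2 downward (3.35% and 6.27% of all measured genes), and an SD over genes of 0.44. That median was -0.04 after quantile normalization and -0.07 after loess, so no direction is read from it either. The 2 genes were the cytochrome oxidase subunits Cox6a1, at -2.04 ± 1.23, and Cox8a, at -1.64 ± 0.09 (SDs of 2 probe sets each). The brightest probe set of Cox6a1 had -1.17. Cox6a2 and Cox8b, of similar names and on the same list, had 0.27 and -0.13, so the low values did not extend to them. The adipocyte and hepatocyte markers were also lower in the null-labelled pool. The part of those cells in the low Cox6a1 and Cox8a values was not tested. The lowest value in complex I was -0.30.

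Single probe sets varied more than genes. Of 79 measured probe sets of the members 2 were 1.5-fold higher or more and 1 was 1.5-fold lower or more in the null-labelled pool, where 5.31% and 6.73% of all 15403 measured probe sets were. Among the 21 members with several measured probe sets, 12 had all of them on 1 side of 0 and 9 did not. The pooled SD between probe sets of a gene was 0.19 for the members and 0.29 for all 3719 genes with several. Of the 43 gene values, 14 were above 0 and 10 below 0 in every alternative that gave them a value, and the other 19 took both signs. Of the 24 with 1 sign, 9 had no value in at least 1 alternative, for want of a probe set, and 15 had a value in all 8.

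Some subunits could not be valued by this rule. Ndufb4 had 1 probe set of its own, which read 64 in the null-labelled pool and 91 in the wild-type-labelled pool, under the floor. The probe sets it shares with Ndufb4b and Ndufb4c read 13758 and 8211 in the null-labelled pool, against 12824 and 6659 in the wild-type-labelled pool, log2 ratios of 0.10 and 0.30. Ndufa11 and Ndufs6 were represented only by probe sets shared with a related locus, with log2 ratios of 0.13 and 0.06 where above the floor. A probe set of Ndufs5 shared with its pseudogene had -0.20, against -0.01 for the one assigned to Ndufs5 alone. Of the 88 probe sets 9 missed the floor on at least 1 array, among them 1 each of Ndufa12, Ndufb8 and Ndufs4.

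**Figure D5:**
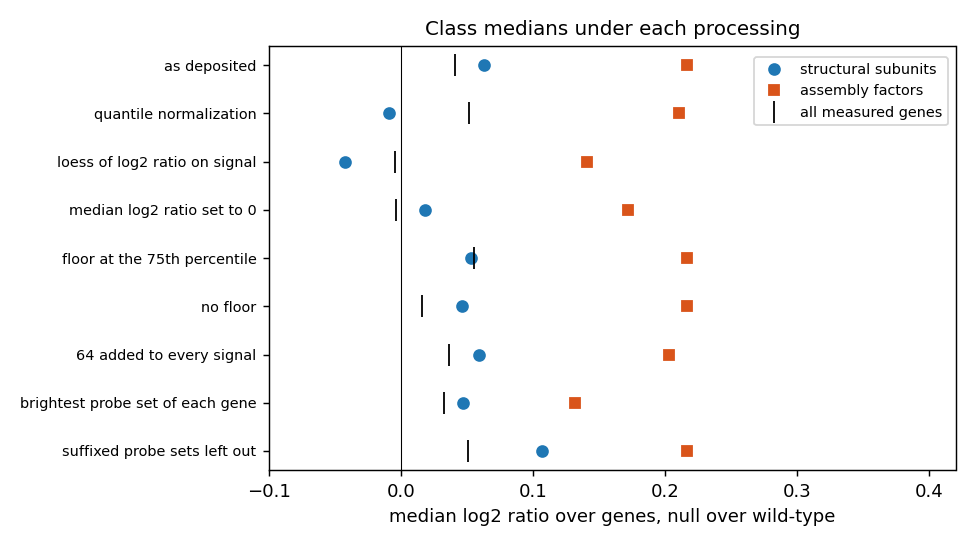
Median log2 ratio over genes, null-labelled over wild-type-labelled (horizontal axis), of structural subunits (circles), assembly factors (squares) and all measured genes (ticks) for the deposited values and 8 alternatives. The structural median runs from -0.04 after loess to 0.11 without suffixed probe sets, and the assembly factor median lies between 0.13 and 0.22.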

How the data were processed

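RNA of 1 Jhdm2a null pool and 1 wild-type pool was read on 2 arrays. The authors deposited linear MAS5 signal intensity for each probe set. The submitters' processing notes name MAS5 without a version, and no genome build was given. Both columns had a 2% trimmed mean of 500.0 and were used unchanged, without the 64 control probe sets. Symbols came from the platform annotation. Probe sets above the 60th percentile of signals on both arrays were averaged, as log2 ratios, into a value for each gene. No replicate exists, so no p-value was computed, and errors are SDs between probe sets or genes. Alternatives were quantile normalization, loess (span 0.4), median centring, a floor at the 75th percentile, no floor, an offset of 64, the brightest probe set, suffixes _x_at, _s_at and _a_at left out, 2-fold, no sign rule, and Ndufa4 as a subunit. The gene averaging and the quantile normalization were run on simulated data with known differences in genes of higher signal. This checked the arithmetic only, and not the 1.5-fold or sign rule. Every measured member is named, with both signals for core subunits, assembly factors, the 8 highest and 8 lowest members, and members whose probe sets differ by over 0.5; of other lists, up to 4 genes. Members and lists were chosen with earlier results of these data known. Columns of other samples numbered 0. Python 3.11.15, pandas 2.3.3, SciPy 1.17.1 and statsmodels 0.14.6 were used.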

Additional observations from a re-analysis of the deposited data

How the results depend on the processing

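The count of members past 1.5-fold was 0 in each direction in all alternatives run, among them 2-fold and no sign rule. The structural median of 0.06 moved by more than the SD of the hybridisation controls (0.09) after loess, to -0.0425; it was also below 0 after quantile normalization (-0.01), and lay between 0.02 and 0.11 in the other alternatives. The assembly factor median and the difference from it kept their signs throughout. Single gene values moved by more than the pooled probe set SD of 0.29 in 4 cases: Ndufab1 was 0.0037 with the floor at the 75th percentile and -0.0009 from its brightest probe set, and with no floor Ndufa12 was 0.52 and Ndufb8 -0.41, since a probe set below the floor then enters each mean. Gene values took the other sign in 12 of 43 after loess and in 9 of 43 after quantile normalization. No paired analysis was possible because each group has 1 array. No array could be left out for the same reason. That number limits the precision.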
